A study of Mus musculus with 16 samples.

Results

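C2C12 is a mouse myoblast cell line whose cells leave the cell cycle and fuse into contractile myotubes when they differentiate in culture. The results below concern C2C12 cells stably transfected with Galgt2 (gene symbol B4galnt2), a glycosyltransferase that adds N-acetylgalactosamine to glycoproteins, α-dystroglycan among them. The array titled as the transfected line after differentiation (C2C12-Galgt2 myotubes) was set against the array of the same line without it (C2C12-Galgt2 myoblasts). These are 2 of 16 arrays in the series and were taken by their titles. The series also holds 1 array each of untransfected cells labelled C2C12 myotubes and C2C12 myoblasts, hybridised as 1 set with the transfected pair, and 12 arrays of mouse gastrocnemius muscle. No genotype other than the transfection, no treatment and no drug is given for the cell line arrays, and the days and medium of differentiation are not given in the sources used here, nor whether the stable line is 1 clone. Each condition is 1 array, so no difference between myotubes and myoblasts has a replicate check and no p-value is given.

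Muscle differentiation proceeds through a known sequence. The factors Myod1 and Myf5 commit cells to the myoblast fate, Myog and the Mef2 factors then switch on genes of the contractile apparatus, and cells that divide are held back by Id and Hey proteins, which block or repress the myogenic factors. Withdrawal from the cell cycle goes with the loss of cyclins, replication and mitosis genes, and fused cells build sarcomeres, calcium release units and a dystrophin-containing membrane complex.

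Expression was read as log2 of the deposited intensity of a gene's probe set, 18194 genes in all, and a difference is the log2 level in myotubes minus that in myoblasts. The levels of different probe sets are not compared, since they differ in how well they bind. A gene is said below to have risen or fallen where its intensities differed at least 2-fold and the higher log2 level was above 7.04, the median of all genes on the 4 cell line arrays; this is a rule of size and not a test. By it 385 genes rose in C2C12-Galgt2 myotubes, 2.12% of all genes, and 295 fell, 1.62%. Only 9517 of the 18194 genes were above that level on at least 1 of the 2 transfected arrays and so could pass. Shares over all genes therefore understate those among genes bright enough to pass. They are the background for the list counts below, where a count of 1 is not read as a result about the list. Replicate muscle arrays of 1 group were compared at the same fold, with probe sets and a median level taken from muscle arrays. In either direction 0.544% of genes passed in mdx muscle treated with AAV-Galgt2, 1.82% in wild type and 2.94% in Galgt2 transgenic mdx. The shares were 3.22% in mdx with PBS, 3.6% in Galgt2 transgenic and 7.57% in mdx muscle. Here 3.74% of genes passed the cell line rule in either direction. That is above every muscle group but mdx muscle, so only that group puts the number within the range of replicate muscle arrays. The median difference of all genes was -0.09. At the edge of the rule lay Carns1 and Sh3bgrl3, just inside at 1.003 and -1.001, and Atp6v0e2 and Smoc2, just outside at 0.999 and -0.9997. The cell line arrays had median intensities of 57.18 to 60.37 and highest intensities of 18058 to 19943, and the log2 difference between 3′ and 5′ Gapdh control probe sets was 0.71 to 0.79 on all 4. The same difference for the actin control was 1.02 on the C2C12-Galgt2 myotube array and 1.44 on the C2C12-Galgt2 myoblast array, against 1.29 on the array labelled C2C12 myotubes and 1.04 on that labelled C2C12 myoblasts; the part of this difference in the results was not tested. Because each array measures RNA of a whole culture, fewer cells of a type and less RNA per cell cannot be told apart.

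The transfected gene was read first. B4galnt2 had a log2 level of 10.82 in C2C12-Galgt2 myotubes and 9.76 in C2C12-Galgt2 myoblasts, against 4.81 on the array labelled C2C12 myotubes and 4.58 on that labelled C2C12 myoblasts. Both transfected arrays therefore carried the transfected gene's signal and both untransfected ones were dim. Within the transfected pair it rose by 1.06, seen by 1 of its 4 probe sets; the other 3 were dim on all 4 arrays.

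The untransfected pair went against its labels. Myl2, Myh4 and Dmd, the markers of differentiated muscle given for these cells, were all lower on the array labelled C2C12 myotubes than on that labelled C2C12 myoblasts, at differences of -4.72, -5.22 and -2.77. The 45 measured cell cycle genes were higher on the array labelled C2C12 myotubes by a median of 0.69. The C2C12-Galgt2 myotube array correlated more closely with the array labelled C2C12 myoblasts (r = 0.990 over 18194 genes) than with that labelled C2C12 myotubes (r = 0.972) or with its own C2C12-Galgt2 myoblasts (r = 0.982); these arrays share probes and much of their level. No cause was tested, and the untransfected arrays are called by their labels throughout. With the probe set and the level threshold set by the transfected pair alone, 379 genes rose and 294 fell, against 385 and 295 with all 4 arrays.

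In the transfected pair the markers went the way of the labels. Of 10 markers of muscle differentiation, all 10 were higher in myotubes and 6 rose, where 2.12% of all genes did. The 10 were Myl2, Myh4 and Dmd, given as markers for these cells, and Myog, Myh3, Acta1, Ckm, Tnnt3, Atp2a1 and Chrna1. Myl2, Myh4 and Dmd are among the 6 that rose, so the count is not independent of that choice. Of 6 measured markers of dividing myoblasts, all 6 were lower in myotubes and 3 fell, where 1.62% of all genes did. Myl2, the regulatory light chain of slow and cardiac muscle, was at 12.51 in myotubes and 5.20 in myoblasts, a 159-fold difference, or 7.31 on the log2 scale. The myoblast value is dim, and with an offset of 32 added to every intensity the log2 difference was 6.42, so the fold depends on how dim signal is treated. The same holds for the other folds given below over a dim myoblast value. Myh4, the heavy chain of the fastest fibres, was at 8.87 in myotubes and 5.39 in myoblasts, 11.1-fold higher. Dmd, which encodes dystrophin, the link between the actin cytoskeleton and the membrane complex, was at 8.91 in myotubes and 4.60 in myoblasts, 19.8-fold higher. All 4 of its probe sets were past 2-fold in that direction, but those at 4.76 and 4.75 in myotubes were below the level threshold on both arrays.

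The myoblast array was not without muscle genes. Myog, the factor of commitment to terminal differentiation, was at 13.15 in myotubes and already at 12.88 in myoblasts, a difference of 0.27. Chrna1, a subunit of the acetylcholine receptor, was at 12.95 in myotubes and 12.91 in myoblasts, and Acta1, skeletal muscle actin, at 12.70 in myotubes and 12.23 in myoblasts. Of the 10 differentiation markers, 10 were above the median level in myotubes and 6 also in myoblasts. The myoblast array thus held strong signal of genes that mark differentiated muscle, whereas Myl2, Myh4 and Dmd were dim on it.

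**Figure D1:**
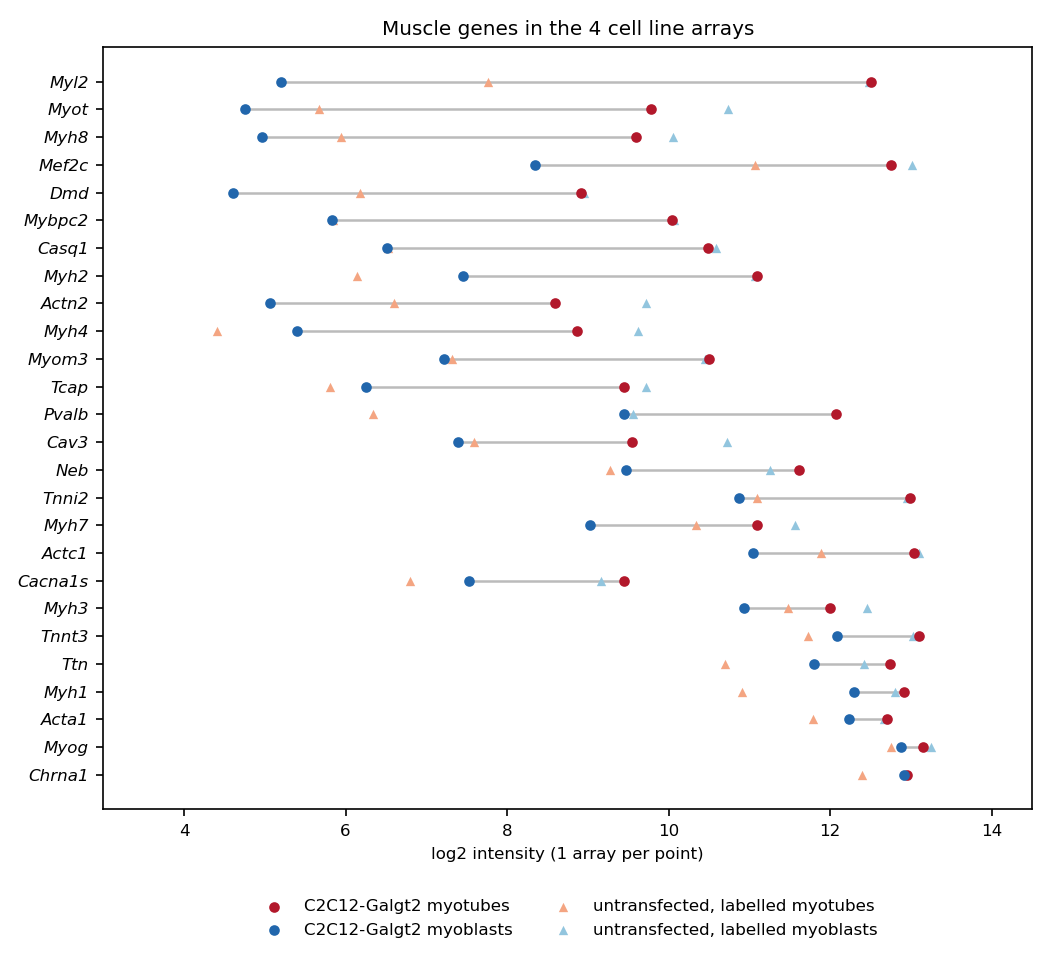
Log2 intensity (x axis) of 26 muscle genes (rows) on the C2C12-Galgt2 myotube array (red circles) and the C2C12-Galgt2 myoblast array (blue circles), joined by a grey line, with the untransfected arrays as triangles named by their labels; each point is 1 array and there are no error bars. Myl2 at the top spans 5.20 to 12.51, while the 2 circles of Chrna1 at the bottom nearly coincide, and for every gene shown the triangle labelled myoblasts lies to the right of that labelled myotubes.

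Of the gene groups examined, the sarcomere, pooled from 4 lists and the largest group, held the largest number of genes that rose. Over the 4 lists of sarcomere genes, 33 of 73 measured members rose (45.2%, against 2.12% of all genes) and 0 fell. The median difference was 0.92, and 65 of 73 were above 0. By share, energy metabolism genes rose about as often, in 11 of 25 cases (44.0%). Among all genes 7156 of 18194 were above 0. Myosin heavy chains, the motors of the thick filament, rose in 6 of 8 members with a median difference of 1.73. Myh8, the perinatal chain, was at 9.60 in myotubes and 4.96 in myoblasts (24.9-fold), and Myh2, the chain of fast oxidative fibres, at 11.09 in myotubes and 7.46 in myoblasts (12.5-fold). Slow Myh7 was at 11.10 in myotubes and 9.02 in myoblasts, and Myh7b rose by 1.38. Embryonic Myh3 rose less, by 1.07, to 12.001 in myotubes against 10.931 in myoblasts. Adult fast Myh1 did not pass the rule, at 12.92 in myotubes and 12.29 in myoblasts, and the cardiac Myh6 was dim on both. Developmental, slow and fast chains were thus all among those that rose.

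The stretches of 250 bases before the start of 4 of these genes are shown because sites of the factors named above are known to lie in muscle promoters. They are Myh4 and Myh8, with Casq1 and Dmd, which are described further on. These 4 were picked by hand among the named genes, so their matches do not stand for the risen genes. They come from RefSeq on GRCm38.p6, each read 5′ to 3′ on the gene's own strand and ending at the base before the annotated start. Capitals mark matches on either strand to CANNTG (the E box bound by Myod1 and Myog), to the MEF2 motif, and to the CArG box of serum response factor; no printed matches overlap.
Myh4, chr11:67237562-67237811, + strand: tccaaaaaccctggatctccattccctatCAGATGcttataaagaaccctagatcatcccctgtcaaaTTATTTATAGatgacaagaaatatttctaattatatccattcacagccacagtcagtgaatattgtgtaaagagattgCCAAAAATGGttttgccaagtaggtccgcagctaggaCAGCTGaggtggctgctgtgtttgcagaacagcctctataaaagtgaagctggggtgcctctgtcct
Myh8, chr11:67276874-67277123, + strand: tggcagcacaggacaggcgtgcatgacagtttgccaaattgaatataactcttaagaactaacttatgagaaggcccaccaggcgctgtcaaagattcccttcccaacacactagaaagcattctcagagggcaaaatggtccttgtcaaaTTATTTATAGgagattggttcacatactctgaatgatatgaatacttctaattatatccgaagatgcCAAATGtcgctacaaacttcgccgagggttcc
Casq1, chr1:172219896-172220145, - strand: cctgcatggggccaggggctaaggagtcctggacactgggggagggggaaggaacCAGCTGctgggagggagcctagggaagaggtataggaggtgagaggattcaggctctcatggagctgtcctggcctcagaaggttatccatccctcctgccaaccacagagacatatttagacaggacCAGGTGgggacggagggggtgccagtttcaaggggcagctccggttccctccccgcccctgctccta
Dmd, chrX:82948620-82948869, + strand: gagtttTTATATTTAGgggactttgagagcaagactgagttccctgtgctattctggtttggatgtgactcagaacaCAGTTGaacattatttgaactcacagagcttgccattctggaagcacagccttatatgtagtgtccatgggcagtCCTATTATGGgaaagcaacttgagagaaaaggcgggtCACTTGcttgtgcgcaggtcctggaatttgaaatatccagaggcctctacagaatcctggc

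The window of Myh4 held 2 matches to CANNTG, 221 and 67 bases before the start, with a MEF2 match at 182 and a CArG box at 104. That of Myh8 held 1 CANNTG match at 32 and a MEF2 match at 99. Casq1 had 2 CANNTG matches, at 195 and 67, and no match to the other motifs. For Dmd the first of 2 listed starts is shown, with CANNTG matches at 173 and 61, a MEF2 match at 244 and a CArG box at 98. CANNTG is short and common, present in 66.2% of all 32851 promoters in the table and 61.3% of those of genes on the array. In the 403 promoters of 292 risen genes the share was 72.0%. MEF2 matches were in 7.69% of the promoters of risen genes, 1.42% of the 281 promoters of 227 fallen genes, and 2.92% of all promoters (1.94% of those of genes on the array). Among the 32 promoters of 27 risen sarcomere genes, 6 (18.8%) held a MEF2 match and 8 (25.0%) held CAGCTG. That was in 13.0% of all promoters and 12.8% of those of genes on the array. In the same 32, CANNTG was in 27 (84.4%) and a CArG box in 3 (9.38%). CArG boxes were in 1.99% of the promoters of all risen genes, 1.47% of all promoters and 1.23% of those of genes on the array. A match is a description of the letters and not evidence of binding.

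Among light chains and their kinases 3 of 9 rose: Myl2, Myl4 and Mylk4. Myl4, the light chain of embryonic and atrial muscle, was at 13.26 in myotubes and 11.60 in myoblasts. Mylk4, a kinase of the myosin light chain kinase family, was at 11.07 in myotubes and 9.51 in myoblasts. The skeletal chains Myl1 and Mylpf differed by 0.56 and 0.37 and were above 12 on both arrays.

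Thin filament genes rose in 8 of 19 cases, with a median difference of 0.47. The giant filament ruler Neb was at 11.62 in myotubes and 9.47 in myoblasts (4.43-fold). Tnni2 and Tnnc2, the fast inhibitory and calcium-binding troponins, rose by 2.11 and 1.86, and Tnnt3, fast troponin T, by 1.01. Cardiac actin, Actc1, which embryonic skeletal muscle also uses, was at 13.04 in myotubes and 11.04 in myoblasts (4.00-fold). Lmod3, which nucleates actin filaments, rose by 1.74. Acta1 and Tpm1, already high in myoblasts, differed by 0.47 and 0.22.

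Genes of the Z disc, M band and titin system rose in 16 of 37 cases, with a median difference of 0.94 and 36 of 37 above 0. Myot (myotilin), which binds α-actinin at the Z disc, was at 9.78 in myotubes and 4.76 in myoblasts (32.5-fold). Mybpc2, the fast myosin-binding protein C, was at 10.04 in myotubes and 5.83 in myoblasts (18.5-fold). Actn2, the α-actinin that crosslinks thin filaments, rose 11.6-fold, Myom3 of the M band 9.71-fold and Tcap, which caps titin, 9.15-fold. Ttn itself, titin, did not reach 2-fold at 12.74 in myotubes and 11.80 in myoblasts.

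Sarcomere members were also grouped by the starting signal of each member's own probe set, which is no measure of amount between genes. Of 23 sarcomere members under log2 8 on the myoblast array, 13 rose and their median difference was 1.71. In the 34 members from 8 to 12, 19 rose, with a median of 1.24. In the 16 members at 12 or above, 1 rose, Tnnt3, with a median of 0.42. The myoblast value enters both the grouping and the difference, so this is a description only. The share that rose was much the same in the lower 2 groups, and the order did not hold within each list: 0 of 3 thin filament members under 8 rose, with a median of -0.14, and the 4 light chain members under 8 had a median of 0.35, against 1.56 for the 3 from 8 to 12.

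**Figure D2:**
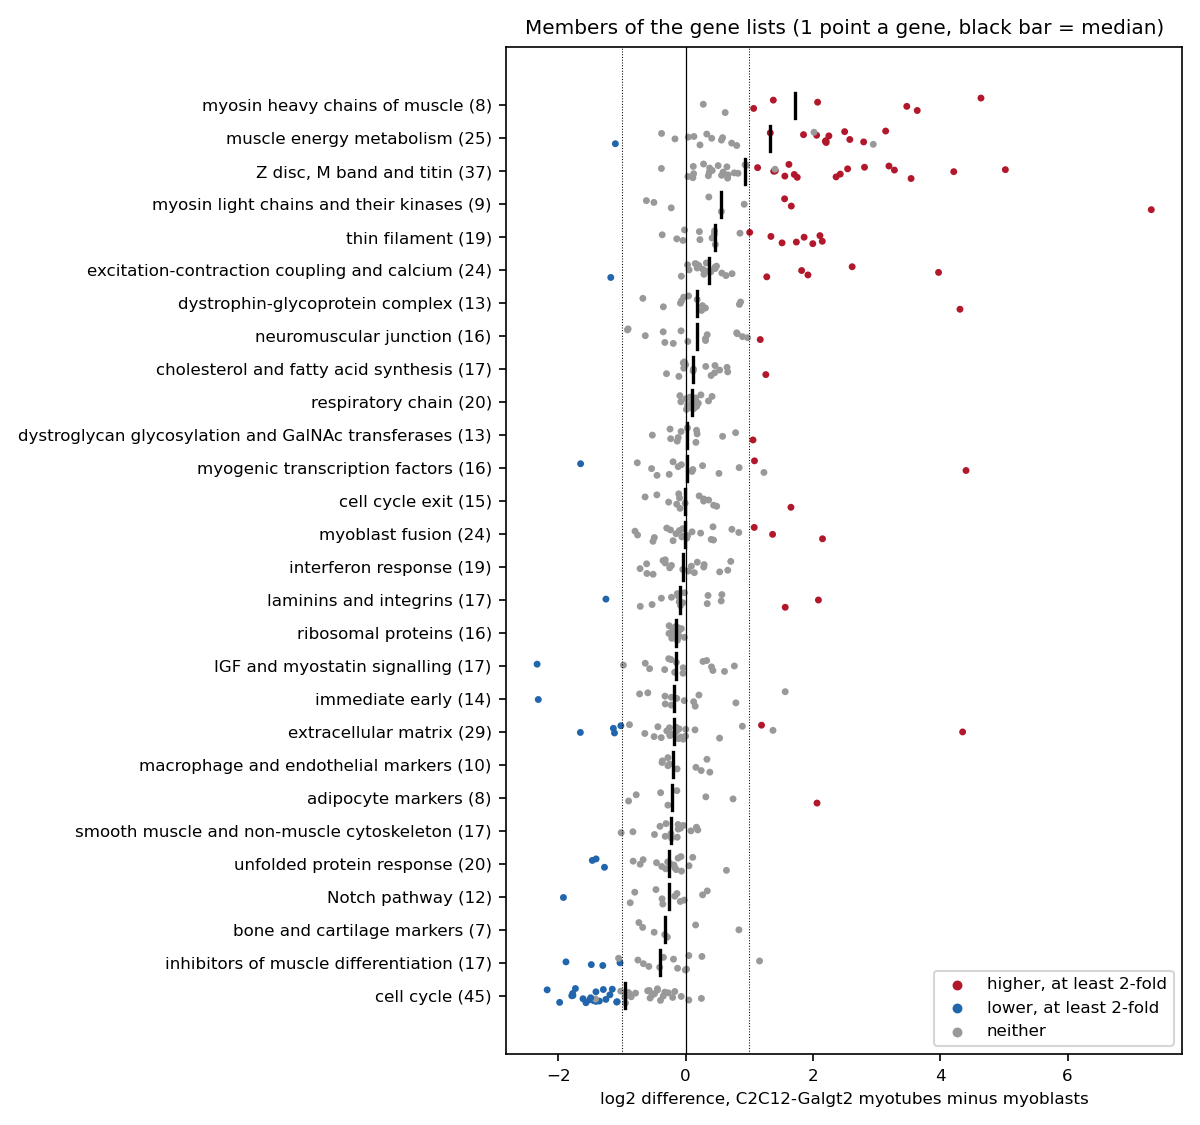
Log2 difference, C2C12-Galgt2 myotubes minus myoblasts (x axis), of every measured member of 28 gene lists (rows, number of measured members in brackets), 1 point a gene, with the black bar at the list's median and dotted lines at 2-fold. Red points rose and blue points fell by the rule, and grey points past a dotted line had too low a level. Myosin heavy chains lie highest, at a median of 1.73, and cell cycle genes lowest, at -0.95.

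Genes that couple excitation to contraction rose in 5 of 24 cases and fell in 1 (20.8% and 4.17%, against 2.12% and 1.62% of all genes). Their median difference was 0.36. Casq1, the calcium-binding protein of the fast sarcoplasmic reticulum, was at 10.48 in myotubes and 6.51 in myoblasts (15.7-fold). Pvalb, the calcium buffer of fast fibres, was at 12.07 in myotubes and 9.45 in myoblasts, against 6.33 on the array labelled C2C12 myotubes and 9.55 on that labelled C2C12 myoblasts, so that the C2C12-Galgt2 myotubes were highest of the 4. Cacna1s, the voltage sensor of the transverse tubule, was at 9.45 in myotubes and 7.52 in myoblasts. Hrc, a calcium-binding protein of the reticulum lumen, rose by 1.82 and the fast calcium pump Atp2a1 by 1.28. The release channel Ryr1 differed by 0.49, at 12.72 in myotubes and 12.23 in myoblasts. Asph, whose locus encodes an aspartyl hydroxylase and the reticulum proteins junctin and junctate, fell by 1.17, but its 6 probe sets disagreed: 2 were past 2-fold lower and 1 past 2-fold higher.

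The dystrophin-glycoprotein complex, which holds the muscle membrane to the matrix, moved little outside Dmd. That gene alone rose among 13 measured members, and the median difference was 0.18. Dag1, which encodes the dystroglycan that carries the glycans, was at 12.87 in myotubes and 12.62 in myoblasts. Utrn, the dystrophin relative utrophin, was at 12.97 in myotubes and 12.92 in myoblasts. Sgca and Sgcd, sarcoglycans, came nearest to 2-fold at 0.85 and 0.86. Among 13 genes of dystroglycan glycosylation and N-acetylgalactosamine transfer, 1 rose, the transfected B4galnt2. Of 16 neuromuscular junction genes, 13 of them above the level threshold, 1 rose (6.25%, against 2.12% of all genes), too few to describe the list. It was Chrnd, an acetylcholine receptor subunit, at 9.75 in myotubes and 8.57 in myoblasts. The fetal subunit Chrng differed by 0.98, just under the threshold, and the receptor kinase Musk by -0.07. Laminins and integrins had 2 members that rose and 1 that fell of 17 (11.8% and 5.88%, against 2.12% and 1.62% of all genes). Itgb1bp2 (melusin), which binds the β1 integrin tail in striated muscle, rose 4.25-fold and Itga1, a collagen receptor subunit, 2.96-fold. Itgb3, the β3 subunit, fell by 1.25.

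Energy metabolism genes of muscle rose in 11 of 25 cases and 1 fell, with a median difference of 1.33. Slc2a4, the insulin-responsive glucose transporter, was at 8.44 in myotubes and 5.30 in myoblasts (8.83-fold). Cox6a2, a muscle form of a cytochrome oxidase subunit, was at 11.60 in myotubes and 8.80 in myoblasts (6.95-fold). Fabp3, which carries fatty acids, rose 5.98-fold, Pygm, the muscle glycogen phosphorylase, 5.65-fold, and Mb, myoglobin, 4.76-fold. The other probe sets of Slc2a4, Fabp3 and Mb, dim on both arrays, were at -0.19, -0.43 and -0.15. Ckb, the brain form of creatine kinase, fell by 1.10, to 8.06 in myotubes against 9.16 in myoblasts. Ckm, the muscle form, was at 7.57 in myotubes and 6.84 in myoblasts and did not reach 2-fold. The 20 general respiratory chain genes had none past the rule and a median of 0.11, with Uqcrc1 at 0.42 and Ndufs1 at 0.36 the farthest from 0.

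Of 16 myogenic transcription factors, 2 rose and 1 fell (12.5% and 6.25%, against 2.12% and 1.62% of all genes). Mef2c was at 12.75 in myotubes and 8.35 in myoblasts, 21.2-fold higher, with all 5 of its probe sets past 2-fold. Tead4 was at 7.97 in myotubes and 6.89 in myoblasts. Pax7, the factor of satellite cells and reserve cells, fell by 1.65, to 8.79 in myotubes against 10.44 in myoblasts. Myod1 was at 12.22 in myotubes and 12.33 in myoblasts, Myf5 at 10.08 in myotubes and 10.61 in myoblasts, and Mef2a at 11.91 in myotubes and 11.81 in myoblasts. Within this family the large difference was that of Mef2c, while Myod1 and Myog stayed within 0.3 of their myoblast level.

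Inhibitors of differentiation fell in 4 of 17 cases (23.5%, against 1.62% of all genes) and none rose, with a median difference of -0.41. Id3, which binds E proteins away from Myod1, was at 8.58 in myotubes and 10.46 in myoblasts, and Id2 at 9.99 in myotubes and 11.02 in myoblasts. The Notch-responsive repressors Heyl and Hey1 fell, at differences of -1.48 and -1.30. Lfng, a glycosyltransferase that modifies Notch, was the member of the 12 Notch pathway genes that fell, at 6.41 in myotubes and 8.32 in myoblasts. Among 24 fusion genes 3 rose (12.5%, against 2.12% of all genes). They were Cav3 (caveolin of muscle) by 2.15, Dysf (dysferlin of membrane repair) by 1.37 and Tmem182 by 1.08. The fusogens Mymk and Mymx differed by 0.84 and 0.10 and were above the median level on both arrays.

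Cell cycle genes fell in larger number than those of any other list. Of 45 measured members, 20 fell (44.4%, against 1.62% of all genes) and 0 rose. In all 43 were below 0, and the median difference was -0.95. Tk1, a thymidine kinase of S phase, was at 6.12 in myotubes and 8.29 in myoblasts (4.51-fold lower in myotubes). Birc5 (survivin), needed for chromosome segregation, was at 9.13 in myotubes and 11.10 in myoblasts (3.93-fold lower). Hmmr, a spindle-associated hyaluronan receptor, fell, as did Mcm5 of the replicative helicase and the mitotic kinesin Kif11, at differences of -1.79, -1.77 and -1.77. The other probe sets of Hmmr were at -1.21, -0.96, -0.91 and -0.28, and the mean over its probe sets was -1.03. Those of Mcm5 were at -1.31 and -0.97, and 1 of the 3 probe sets of Kif11 was at 0.16. Ccnd1, the cyclin of G1, was at 8.24 in myotubes and 9.68 in myoblasts, and Cdk1, the mitotic kinase, at 7.79 in myotubes and 9.40 in myoblasts. Mki67, the usual marker of dividing cells, was at 7.79 in myotubes and 8.69 in myoblasts and did not reach 2-fold. Pcna, the replication clamp, differed by -0.17.

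Across all 4 arrays the C2C12-Galgt2 myotubes had the lowest level of 43 of the 45 cell cycle genes (95.6%), against 25.8% of all genes. Both transfected arrays lay below both untransfected ones for 35 of the 45 (77.8%), against 10.2% of all genes. Tk1, for example, was at 6.12 in C2C12-Galgt2 myotubes, 8.29 in C2C12-Galgt2 myoblasts, 9.38 on the array labelled C2C12 myotubes and 8.80 on that labelled C2C12 myoblasts. Among 15 genes of cell cycle exit 1 rose, Btg2, an antiproliferative gene, at 8.70 in myotubes and 7.04 in myoblasts. Cdkn1a, the cyclin kinase inhibitor p21, was at 12.89 in myotubes and 12.44 in myoblasts.

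**Figure D3:**
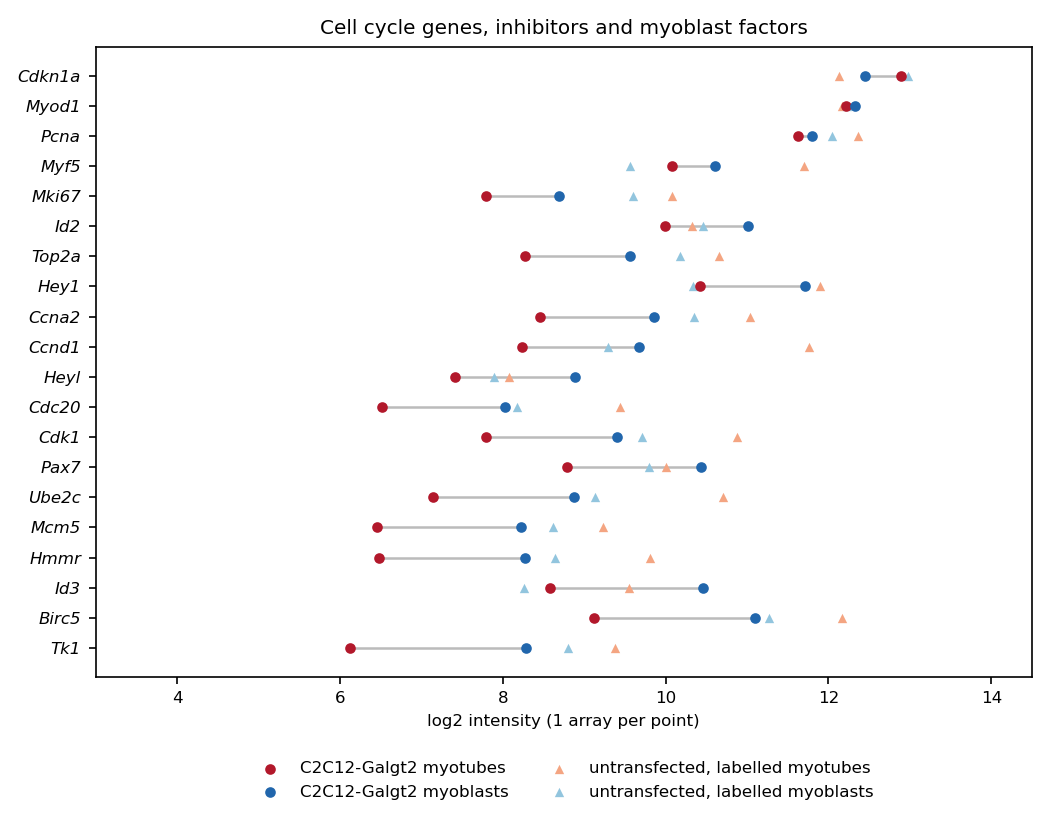
Log2 intensity (x axis) of 20 genes of cell division, of inhibitors of differentiation and of myoblast factors (rows) on the C2C12-Galgt2 myotube array (red circles) and the C2C12-Galgt2 myoblast array (blue circles), joined by a grey line, with the untransfected arrays as triangles named by their labels; each point is 1 array and there are no error bars. The red circle lies left of the blue one for all but Cdkn1a, and for Tk1, Hmmr and Mcm5 both triangles lie to the right of both circles.

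The 250 bases before the start of 3 of the fallen cell cycle genes are shown because the CHR element TTTGAA and CCAAT boxes are known features of promoters that are shut when cells stop dividing. These 3 were also picked by hand. Source, build and reading direction are as above, and capitals mark matches to TTTGAA or CCAAT on either strand, so that ATTGG and TTCAAA are matches on the opposite strand.
Hmmr, chr11:40733438-40733687, - strand: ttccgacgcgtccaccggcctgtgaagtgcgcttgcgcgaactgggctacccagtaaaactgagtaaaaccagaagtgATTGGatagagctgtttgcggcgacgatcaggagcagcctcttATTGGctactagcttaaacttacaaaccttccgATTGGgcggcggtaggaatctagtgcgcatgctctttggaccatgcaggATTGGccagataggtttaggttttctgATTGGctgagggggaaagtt
Mcm5, chr8:75109259-75109508, + strand: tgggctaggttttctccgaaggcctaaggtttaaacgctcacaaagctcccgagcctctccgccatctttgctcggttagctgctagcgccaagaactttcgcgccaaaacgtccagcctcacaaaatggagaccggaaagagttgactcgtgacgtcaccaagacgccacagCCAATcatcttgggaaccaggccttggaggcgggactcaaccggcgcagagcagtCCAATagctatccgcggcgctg
Kif11, chr19:37376132-37376381, + strand: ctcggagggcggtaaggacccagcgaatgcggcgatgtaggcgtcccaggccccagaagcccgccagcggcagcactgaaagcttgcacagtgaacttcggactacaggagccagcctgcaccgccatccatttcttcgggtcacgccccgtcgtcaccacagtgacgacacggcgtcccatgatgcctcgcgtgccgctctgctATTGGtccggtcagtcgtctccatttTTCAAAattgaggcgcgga

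Hmmr held 5 CCAAT matches, 172, 129, 96, 47 and 20 bases before the start, and Mcm5 held 2, at 77 and 22. Kif11 held a CCAAT match at 45 and a TTTGAA match at 19. Of the 15 fallen cell cycle genes with a listed promoter, each with 1, 80.0% held CCAAT, against 33.8% of all promoters, and 40.0% held TTTGAA, against 16.0%. Among the promoters of all fallen genes 38.8% held CCAAT and 17.8% TTTGAA, against 34.7% and 11.9% of the promoters of genes on the array. No match to one of these motifs says only that its letters are not in the window.

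Matrix genes moved in both directions, 2 up and 4 down of 29 (6.90% and 13.8%, against 2.12% and 1.62% of all genes). Dcn (decorin), a proteoglycan that binds collagen fibrils, was at 10.07 in myotubes and 5.72 in myoblasts (20.4-fold), and Timp3, a metalloproteinase inhibitor, at 11.95 in myotubes and 10.76 in myoblasts. Col6a3 and Col6a2, chains of collagen VI, fell, at differences of -1.65 and -1.11, as did the growth factor Tgfb1 at -1.13 and the inhibitor Timp1 at -1.02. For Dcn the C2C12-Galgt2 myoblasts stood alone at the low end, since the arrays labelled C2C12 myotubes and C2C12 myoblasts were at 10.33 and 9.84. In IGF and myostatin signalling 1 of 17 fell, Igfbp3, which binds IGF, at 7.22 in myotubes and 9.55 in myoblasts.

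The unfolded protein response had 3 of 20 members that fell and 0 that rose. They were Pdia4, a disulfide isomerase, at a difference of -1.46, and the reticulum proteins Sdf2l1 and Creld2 at -1.40 and -1.27. Fosl1, a Fos family factor, fell among the 14 immediate early genes, at 5.17 in myotubes and 7.48 in myoblasts. Dhcr7, the last enzyme of cholesterol synthesis, rose by 1.26 as 1 of 17 genes of lipid synthesis. No member of the interferon response (19), ribosomal protein (16) or smooth muscle and non-muscle cytoskeleton (17) lists passed the rule. Only 5 of the 19, against all 16 and 15 of the 17, were above the level threshold, so most interferon response members could not pass. In the interferon response Irf7 was at -0.71, below the level threshold, and Stat2 at 0.71, with its other probe set at -0.48. In the cytoskeleton list Cnn1 was at -1.01 below the level threshold and Cnn2 at -0.83. Among ribosomal proteins Rpl8 and Rps9 were both at -0.26. Gapdh, a gene often used as a reference, differed by 0.01, and its 3 probe sets by 0.01 to 0.07. Actb differed by -0.13 in its brightest probe set, by -0.02 to -0.61 over its 5 probe sets and by -0.34 in their mean.

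The 15 largest rises held 7 genes of the lists above (Myl2, Myot, Myh8, Mef2c, Dmd, Mybpc2 and Dcn) and 8 on no list. Among those 8, Rai2 was at 10.12 in myotubes and 4.09 in myoblasts (65.5-fold), and Fxyd6, a regulator of the sodium pump, at 10.72 in myotubes and 4.82 in myoblasts (60.0-fold). Ablim3, an actin-binding LIM protein, was at 11.50 in myotubes and 5.62 in myoblasts (58.7-fold). With the offset of 32 their log2 differences were 4.55 for Rai2, 4.84 for Fxyd6 and 5.17 for Ablim3, in place of 6.03, 5.91 and 5.88, so that their order turned round. Ms4a4d, a membrane protein of the MS4A family, rose 32.5-fold, Fgf13, which binds voltage-gated sodium channels, 27.9-fold, and Esrrg, a nuclear receptor of oxidative metabolism, 22.1-fold. The rise of Fgf13 was seen by 1 of its 2 probe sets and that of Esrrg by 1 of 3; with the mean over a gene's probe sets the differences were 2.41 and 1.35, and Esrrg no longer passed the rule. Afap1l1 rose 20.4-fold and the tetraspanin Tspan13 18.8-fold. Of these 15 genes, 14 were lower past the same rule on the array labelled C2C12 myotubes than on that labelled C2C12 myoblasts, and Dcn was the other.

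The 15 largest falls came from no list. Avpr1a, a vasopressin receptor, was at 5.51 in myotubes and 9.15 in myoblasts (12.5-fold lower in myotubes). Alox5ap, which presents substrate to 5-lipoxygenase in leukotriene synthesis, was at 5.45 in myotubes and 8.93 in myoblasts. Fmod (fibromodulin), a matrix proteoglycan, was at 6.06 in myotubes and 9.53 in myoblasts. All 6 of its probe sets were past 2-fold lower, but those at 5.74 and 6.08 in myoblasts were below the level threshold on both arrays. The differences were -3.36 for Dync1i1, a dynein chain, -3.27 for Tfap2c, an AP-2 factor, -3.23 for Dpyd, which degrades pyrimidines, and -2.93 for Rspo2, which enhances Wnt signalling. The other of the 2 probe sets of Rspo2 was at -0.23, and that of Avpr1a at -0.91. They were -2.85 for Orm1, an acute phase protein, -2.78 for Perp, a desmosomal protein, -2.76 for Megf6, -2.64 for Speer3 and -2.62 for the lymphatic growth factor Vegfc. Genes known from leukocytes were among them, with -2.99 for Btla of lymphocytes, -2.84 for Tnfrsf13c, the BAFF receptor of B cells, and -2.56 for Msr1, a scavenger receptor of macrophages. The other probe sets of Msr1 were at -0.04, -0.71 and -0.90. All 10 markers of macrophages and endothelium were below the median level on both arrays, at 3.68 to 6.19 in myotubes and 3.96 to 5.95 in myoblasts. In the untransfected pair as labelled, 4 of the 15 were higher, 1 was lower (Vegfc) and 10 passed the rule in neither direction. For all of the 15 but Alox5ap, Dync1i1 and Perp, the C2C12-Galgt2 myoblasts were the highest of the 4 arrays.

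Markers of other cell types that C2C12 cells can turn into gave 1 gene past the rule. Of 8 adipocyte markers, 4 were above the median level in myotubes and 3 in myoblasts, and 1 rose: Cd36, a fatty acid transporter that muscle also makes, was at 7.66 in myotubes and 5.60 in myoblasts. Adipoq and Fabp4, which define adipocytes, were at 3.09 and 4.97 in myotubes and 3.36 and 4.23 in myoblasts. Of 7 bone and cartilage markers only 2 were above the level threshold, so the others could not pass the rule, and none did. Sp7 was at -0.73 and Dmp1 at 0.84.

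The list medians had opposite signs in the transfected pair and in the untransfected pair as labelled for 23 of the 28 lists, many of them close to 0. They had the same sign for 5: inhibitors of differentiation (-0.41 and -0.08), myoblast fusion (-0.01 and -0.03), laminins and integrins (-0.08 and -0.06), cell cycle exit (-0.01 and -0.30) and immediate early genes (-0.18 and -0.03). With the mean over a gene's probe sets, the transfected pair's medians were 0.04 for myoblast fusion, 0.14 for laminins and integrins and 0.01 for cell cycle exit. The median of dystroglycan glycosylation and N-acetylgalactosamine transfer went from 0.03 to -0.02. The sign of a median this close to 0 thus depends on the probe set, and so do the counts of lists. The 2 sets of differences had a Pearson r of -0.472 across 18194 genes, given as a description; the pairs share no array, but genes are not independent replicates. Of the 385 genes that rose in C2C12-Galgt2 myotubes, 246 were lower past the rule in the untransfected pair as labelled, which is 63.9% of the risen genes and 40.6% of the untransfected pair's 606 lower genes. In that pair 3.33% of all genes were lower and 2.91% higher, shares that include genes too dim to pass the rule. Of the 295 fallen genes, 117 were higher in the untransfected pair, 39.7% of them and 22.1% of its 530 higher genes. For 64 of the 73 sarcomere genes (87.7%) the C2C12-Galgt2 myotubes and the array labelled C2C12 myoblasts were the highest 2 of the 4 arrays, against 18.3% of all genes. All 8 myosin heavy chains and 35 of 37 genes of the Z disc, M band and titin showed that order, as did 21 of 25 energy metabolism genes.

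**Figure D4:**
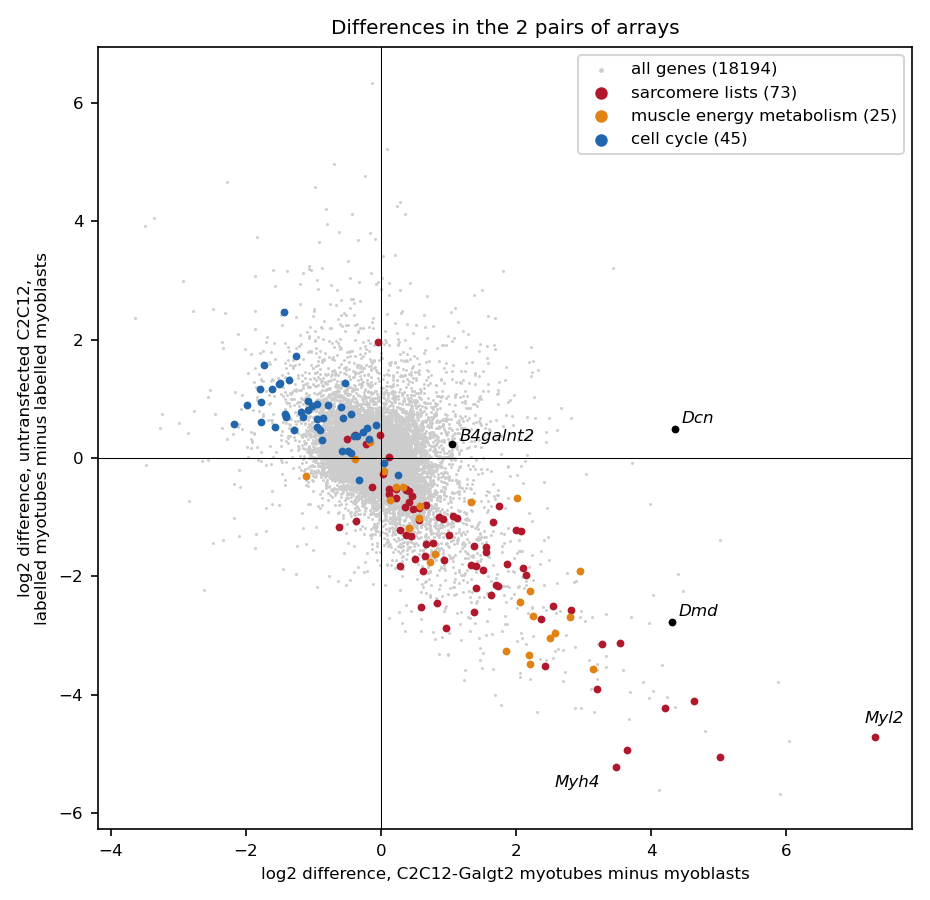
Log2 difference in the transfected pair, C2C12-Galgt2 myotubes minus myoblasts (x axis), against that in the untransfected pair, array labelled myotubes minus array labelled myoblasts (y axis), for 18194 genes (grey), with sarcomere (red), energy metabolism (orange) and cell cycle genes (blue) coloured and B4galnt2, Dcn and Dmd in black. Sarcomere genes run to the lower right, as far as Myl2 at 7.31 and -4.72, cell cycle genes lie to the upper left, and Dcn lies apart at 4.35 and 0.50.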

How the data were processed

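The deposited table gives an intensity for every probe set and array, made by the authors with GCOS and RMA per the submitters' processing notes, which name no version; whether the array sets were normalised together is not given in the sources used here. RNA was amplified and biotin-labelled, per the labels' protocols. The values are all positive and reach 19943 on the cell line arrays, so they were taken as linear, and log2 of the deposited intensity was used. Of 45101 probe sets, 34958 carry 1 gene symbol in the platform annotation and were used, except 1 with an empty cell; 932 with several symbols and 9211 with no listed gene were not used. Entrez IDs of 34754 were found in RefSeq's gene table and 0 symbols differed. Each gene was represented by whichever of its probe sets was brightest on average across the 4 cell line arrays.

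Members, 28 gene lists (504 of 539 entries measured) and rules were chosen with earlier results of these data known. Named are the 15 largest rises and falls, up to 5 risen and 5 fallen members of each list (2 of largest difference where none passed), and Myh4, Myl2, Dmd, B4galnt2, Gapdh and Actb; others were chosen as markers or after their values were seen. Of 89 named genes past the rule, 48 have 1 probe set and 23 have at least 2 past 2-fold the same way. Computation used Python 3.11.15, pandas 2.3.3 and numpy 2.4.6 and was tested on simulated data. Alternatives changed the probe set, the scaling, an offset of 32, the level threshold and the unit counted. The number of arrays limits the precision, and arrays have no read depth.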

Additional observations from a re-analysis of the deposited data

Results flagged for a closer look

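Several results went one way in the transfected pair and the other way in the untransfected pair as labelled. Each pair has 1 array per condition, so the difference between the pairs was not tested, and the values are C2C12-Galgt2 myotubes minus myoblasts and then labelled C2C12 myotubes minus labelled C2C12 myoblasts. Myosin heavy chains had median log2 differences of 1.73 and -2.25. Myosin light chains and their kinases had medians of 0.56 and -1.04. Genes of the Z disc, M band and titin had medians of 0.94 and -1.71, and muscle energy metabolism genes 1.33 and -1.63. Cell cycle genes had medians of -0.95 and 0.69. Among single genes Myh4 differed by 3.47 and -5.22, Myl2 by 7.31 and -4.72, and Dmd by 4.31 and -2.77.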

How the results depend on the processing

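No paired analysis was possible because each condition has 1 array and no test was run. Among recomputed counts and list medians, 232 stayed close to the reported value and 8 did not. Close meant counts within 1.5 times and medians within 0.483, the median standard deviation of the log2 difference between replicate muscle arrays. A median that changed sign within 0.483 counted as close, as did that of laminins and integrins, at -0.08 to 0.14 over the settings. For lists with medians near 0 the tally therefore says little, and it includes counts of 0 that stayed 0. Without a threshold on level 610 genes rose; with the threshold at the 75th percentile of level 137 rose and 74 fell, and 6 energy metabolism genes rose, 0 fell and 3 cell cycle genes fell. Counting all probe sets gave 674 that rose and 446 that fell. These follow from how many genes or probe sets each setting admits. With the probe set brightest in muscle, Asph was at 0.86 and Kif11 at 0.16, in place of falls, and Rspo2 was at -0.23 and no longer passed, since their probe sets disagree. Of 89 named genes past the rule, 9 no longer passed with the mean over a gene's probe sets (Asph, B4galnt2, Esrrg, Fosl1, Id2, Itgb3, Pdia4, Tgfb1 and Tnni2), 2 with quantile normalisation, 3 with the offset and 44 at the 75th percentile. The offset moved the difference of 24 of 103 named genes by over 1.5-fold. The 1 array per condition limits every value, since the cell lines' own spread is unknown.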

Other observations

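A small set of genes went the same way in both pairs as labelled, 20 higher and 9 lower, chosen after their values were seen. The 20 are 5.19% of the genes that rose in C2C12-Galgt2 myotubes, against 2.91% of all genes higher in the untransfected pair. The 9 are 3.05% of those that fell, against 3.33% of all genes lower there. Every risen or fallen gene had passed the level threshold, whereas only 9517 of all 18194 genes were above it in the transfected pair. The shares over all genes are therefore too low a background, and neither count is read as an excess. Pclo, a presynaptic scaffold, had differences of 3.44 in the transfected pair and 3.20 in the untransfected pair, and Fyb, an adaptor of leukocytes, of 2.22 and 1.39. Tslp, a cytokine, had 1.69 and 1.84, the cyclin Ccnd2 1.14 and 2.30 and the growth factor Pdgfd 1.04 and 2.46. In the transfected pair 1 of 3 probe sets of Pclo, 3 of 7 of Ccnd2, 2 of 3 of Pdgfd and 2 of 2 of Fyb were past 2-fold higher. All 8 probe sets of Cp (ceruloplasmin) were past 2-fold higher in C2C12-Galgt2 myotubes, with differences of 1.11 and 1.29 in the 2 pairs. Among the genes lower in both were Vegfc at -2.62 and -2.22, Igfbp3 at -2.33 and -1.39 and Nrarp, a target of Notch, at -2.10 and -1.31.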
